A study of Homo sapiens with 12 samples.

Results

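The genes described here are 10 known targets of the tumour suppressor p53 that act in cell cycle arrest, in the feedback on p53 and in the control of growth, stress and RNA: CDKN1A, BTG2, GADD45A, MDM2, MDM4, PPM1D, CCNG1, SESN1, ZMAT3 and GDF15. They were chosen by name, as the rows of the gene count files whose identifiers map to these symbols, and all 10 had a row among the 60649 genes of each file. All 10 were also among the 16683 genes that passed the filter on low counts, with 92 to 47322 counts per library. RNA was sequenced from spheroids of SBC3, an established human cell line labelled as small cell lung cancer (SCLC), a neuroendocrine lung tumour. There were 4 groups of 3 libraries: control, teriflunomide alone, lurbinectedin alone, and teriflunomide with lurbinectedin (the combination). Teriflunomide inhibits DHODH, an enzyme of pyrimidine synthesis, and lurbinectedin binds the minor groove of DNA and stalls RNA polymerase II. All groups share the same cell line, and the labels state neither dose nor length of exposure. The labels do not say that replicates came from separate cultures, so the p-values below measure the spread between these libraries, which may be technical.

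p53 is a transcription factor that is held at a low level in unstressed cells by MDM2, a ubiquitin ligase that marks it for degradation, and by the MDM2 relative MDM4, which binds p53 and blocks its activity. DNA damage, stalled transcription and nucleotide shortage are known to release p53 from this control. Stabilised p53 then binds paired 10-base units in its target genes, among them arrest genes such as CDKN1A and feedback genes such as MDM2 and PPM1D, whose products turn p53 down again.

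RefSeq promoter windows (GRCh38.p14, 250 bases before to 50 bases after a transcript start) were found for 9 of the 10 genes, 16 windows in all, and GADD45A had none in the table used. An exact p53 unit of 10 bases was present in 1 of these 16 windows, against 2329 of all 35116 windows (6.63%), and none of the 16 held 2 exact units up to 13 bases apart, against 10 of all windows (0.028%). The motif was searched by name, the p53 response element, whose unit is its own reverse complement, so that a match covers both strands. A looser count of matches to the 20 bases of 2 adjoining units, with the C and G of each unit's core intact, was then taken in every window. Best matches per gene ran from 11 to 18 of 20, and the 4 sequences below, of 15 to 18 matches, are shown because they hold the 3 closest and that of CDKN1A. Capitals mark the bases that match the element, and each is written 5′ to 3′ on the strand of its gene.
MDM2: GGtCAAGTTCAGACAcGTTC
SESN1: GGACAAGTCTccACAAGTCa
GDF15: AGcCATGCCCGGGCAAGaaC
CDKN1A: tGGCcTGCTgGAACTcGgCC
The MDM2 element matched at 18 of 20 bases, a score that 0.28% of all windows reached, and lay at chr12:68808923-68808942 on the plus strand, inside the gene and beginning 94 bases before one of its internal starts. That internal promoter, in the first intron of the longer transcripts, is the part of MDM2 known to respond to p53. SESN1 matched at 17 of 20 bases (1.12% of windows), at chr6:109009018-109009037 on the minus strand, beginning 49 bases before an internal start, and it carried the 1 exact unit found. GDF15 also matched at 17 of 20, at chr19:18386186-18386205, in an exon 28 bases after the start. The best match of CDKN1A, 15 of 20, was no rarer than 11.5% of windows; its well-studied p53 elements lie further upstream than this window reaches. BTG2 had at best 11 of 20 matches, a level reached by 65.21% of windows, and a low count says only that these letters are not in this window. All these shares are per window, while a gene with several windows is given at its best. MDM2 windows at another start had at best 12 of 20 matches (56.19% of windows).

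The 2 stretches around the MDM2 and SESN1 elements, shown because they hold 2 of the 3 closest matches and lie before the start, follow with the element in capitals. Only the best match with the core of each unit intact is in capitals, and other near matches in these stretches were not marked. The first is chr12:68808863-68809001 on the plus strand and the second is chr6:109008989-109009097 on the minus strand.
MDM2: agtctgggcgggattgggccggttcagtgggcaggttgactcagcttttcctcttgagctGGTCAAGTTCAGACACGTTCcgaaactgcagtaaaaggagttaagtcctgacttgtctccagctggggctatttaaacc
SESN1: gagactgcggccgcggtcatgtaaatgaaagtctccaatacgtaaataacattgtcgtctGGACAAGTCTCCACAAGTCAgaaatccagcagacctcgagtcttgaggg

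Between 23206414 and 33222162 reads were assigned to genes in a library, a ratio of 1.43. Teriflunomide replicate 3 and combination replicate 2 stood apart: 22.6% and 24.9% of their counts fell on the 37 mitochondrial genes, against 8.42% to 8.43% in the other 2 teriflunomide libraries and 13.1% to 14.6% in the other 2 of the combination. The share was 6.26% to 7.17% in control and 13.8% to 17.0% with lurbinectedin. Of the small cell markers, YAP1 (60.2 to 343 CPM), KRT8 (196 to 444 CPM), SYP (14.1 to 36.2 CPM) and NEUROD1 (1.502 to 6.51 CPM) were detected in every library. INSM1, NCAM1 and EPCAM had 0, 6 and 3 counts in all 12 libraries together, and CHGA, POU2F3 and KRT18 had 85, 42 and 60. Several neuroendocrine and epithelial markers of the labelled tumour type were thus absent or nearly so. CPM is a gene's count scaled to a common library total by the TMM method.

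**Figure D1:**
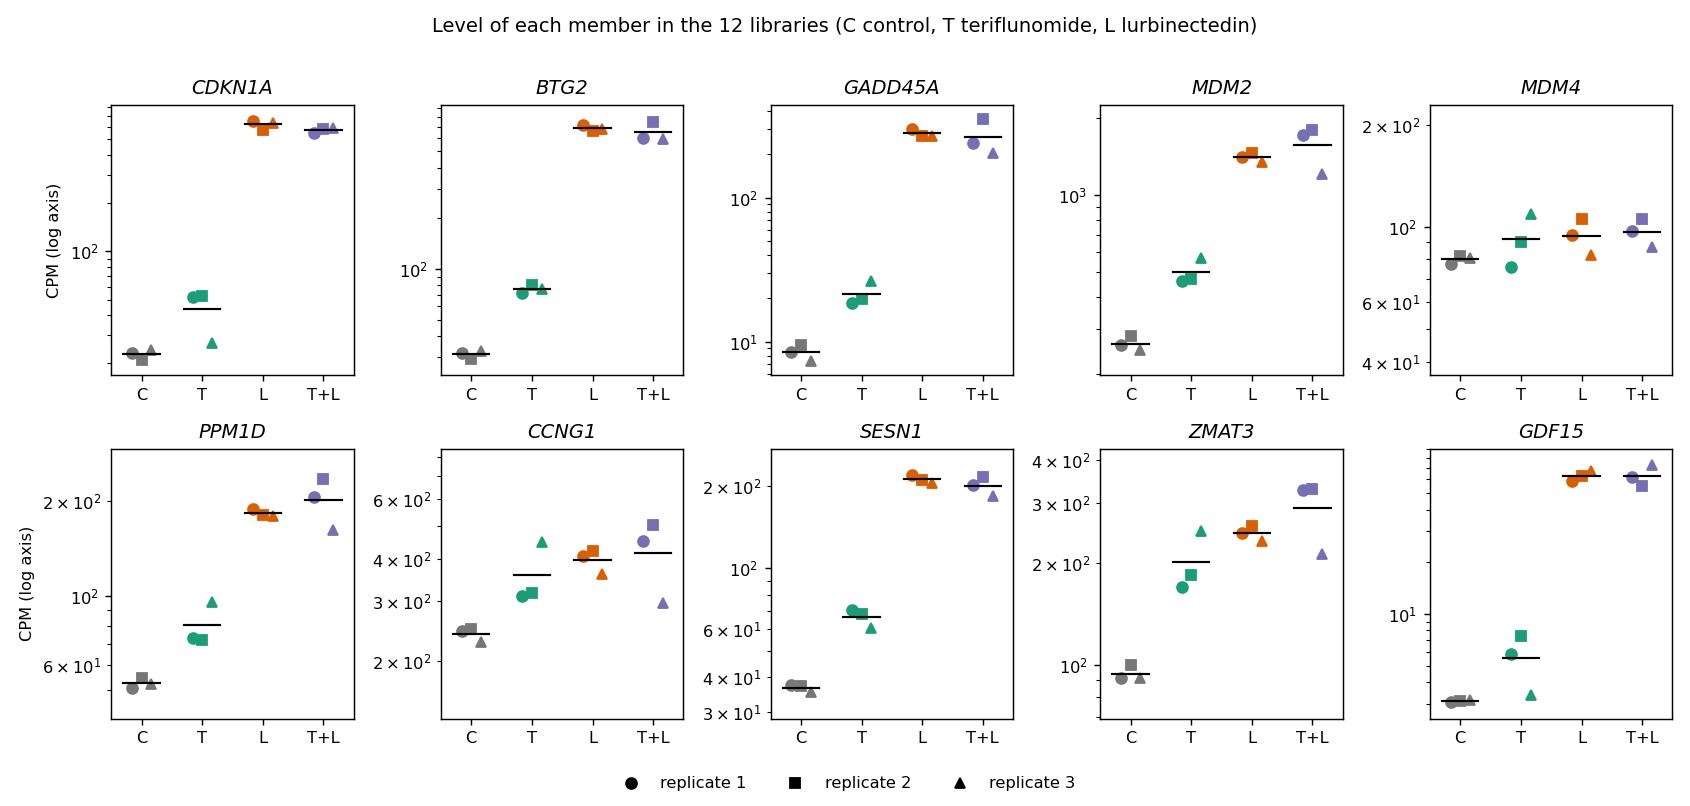
Level of each of the 10 genes in the 12 libraries, in CPM on a log axis, with 1 panel per gene; symbols mark replicates and the black line marks the mean of the 3 libraries of a group. In 9 of the 10 panels every teriflunomide library lies above every control library, and MDM4 is the exception; CDKN1A and GDF15 are lowest among the teriflunomide libraries in replicate 3.

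Teriflunomide raised 8 of the 10 genes and lowered none, against 3.88% of all genes tested called higher, 2.13% lower and 6.01% either way (edgeR quasi-likelihood test, Benjamini-Hochberg adjusted p under 0.05). The median log2 fold change (log2 change below) of the 10 genes was 0.89, compared with 0.03 over all genes tested. In 9 of the 10 genes every teriflunomide library lay above every control library, which was so for 20.1% of all genes. The rises were moderate: the 8 called genes changed by 1.53-fold to 2.55-fold. MDM4 and CCNG1 were not called.

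The arrest genes rose with teriflunomide. BTG2 (ENSG00000159388.6, chr1:203305491-203309602) encodes a protein that slows proliferation and recruits the complex that shortens mRNA tails. It was at 31.7, 29.2 and 32.4 CPM in the control libraries and at 72.2, 80.7 and 76.1 CPM with teriflunomide. The groups did not overlap and the 3 treated libraries were close together, and the log2 change was 1.29 (SE 0.107, edgeR adjusted p = 5.545e-05). GADD45A (ENSG00000116717.13, chr1:67685201-67688334), a growth arrest and stress kinase adaptor, was at 8.45, 9.49 and 7.32 CPM in control and at 18.4, 19.7 and 26.2 CPM with teriflunomide. All treated libraries were higher, replicate 3 most, and the log2 change of 1.35 (SE 0.195, edgeR adjusted p = 0.00191) was the largest among the 10 genes. CDKN1A (ENSG00000124762.14, chr6:36676460-36687337) encodes p21, the inhibitor of cyclin-dependent kinases that carries out much of the p53 arrest. Its control levels were 23.2, 21.1 and 24.2 CPM, and its levels with teriflunomide were 52.1, 52.2 and 26.7 CPM. Replicates 1 and 2 were alike and replicate 3 was only 1.17 times the control mean, so the rise of CDKN1A (log2 change 0.94, SE 0.191, edgeR adjusted p = 0.0141) was 1.19 without replicate 3.

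Of the feedback genes, MDM2 and PPM1D were called and MDM4 and CCNG1 were not. MDM2 (ENSG00000135679.26, chr12:68808177-68845544) was at 259, 280 and 247 CPM in control and at 462, 469 and 568 CPM with teriflunomide. No library of one group reached the other, and the log2 change was 0.93 (SE 0.137, edgeR adjusted p = 0.00211). PPM1D (ENSG00000170836.12, chr17:60600183-60666280), a phosphatase that removes activating phosphates from p53 and its kinases, was at 50.7, 54.6 and 52.2 CPM in control and at 73.3, 72.3 and 95.5 CPM with teriflunomide. Its log2 change was 0.61 (SE 0.138, edgeR adjusted p = 0.0218). CCNG1 (ENSG00000113328.19, chr5:163437569-163446151) encodes cyclin G1, which recruits a phosphatase that activates MDM2. It was at 245, 248 and 227 CPM in control and at 311, 318 and 449 CPM with teriflunomide; the groups did not overlap, but the spread among treated libraries left the log2 change at 0.58 (SE 0.177, edgeR adjusted p = 0.0667), not called. MDM4 (ENSG00000198625.13, chr1:204516379-204558120) was at 77.5, 81.8 and 81.0 CPM in control and at 76.2, 90.0 and 109 CPM with teriflunomide. Here the groups overlapped, and the 95% interval of the MDM4 log2 change ran from -0.09 to 0.48.

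The genes of growth, stress and RNA control were all called. SESN1 (ENSG00000080546.13, chr6:108986437-109094819) encodes sestrin 1, which restrains the growth kinase complex mTORC1 under stress. It was at 37.6, 37.3 and 35.4 CPM in control and at 70.6, 68.0 and 60.5 CPM with teriflunomide, 2 ranges far apart, with a log2 change of 0.85 (SE 0.0963, edgeR adjusted p = 0.00047). ZMAT3 (ENSG00000172667.11, chr3:178960121-179072215), a zinc finger protein that binds RNA and influences splicing, was at 91.4, 99.8 and 91.2 CPM in control and at 170, 183 and 247 CPM with teriflunomide. The log2 change of ZMAT3 was 1.09 (SE 0.167, edgeR adjusted p = 0.00282). GDF15 (ENSG00000130513.6, chr19:18374731-18389176), a secreted stress cytokine, was at 3.08, 3.11 and 3.17 CPM in control and 5.83, 7.40 and 3.37 CPM with teriflunomide. As with CDKN1A, replicate 3 of teriflunomide was close to control (1.08 times its mean), and the log2 change of GDF15 was 0.83 (SE 0.222, edgeR adjusted p = 0.0435).

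The calls of CDKN1A, PPM1D and GDF15 with teriflunomide were the weakest. Each was lost when control replicate 1, 2 or 3 was left out, and when only these 2 groups were fitted, with edgeR adjusted p of 0.0593 to 0.11 for CDKN1A, 0.061 to 0.102 for PPM1D and 0.137 to 0.162 for GDF15, so that 5 of the 10 genes were then called. GDF15 was also lost without teriflunomide replicate 1 or 2 (edgeR adjusted p = 0.0671 and 0.116), and with library size as the only scaling CDKN1A and GDF15 were not called (0.0958 and 0.203). CCNG1 was gained without teriflunomide replicate 1 (0.68, edgeR adjusted p = 0.0477), with no expression filter (0.55, edgeR adjusted p = 0.000961) and with DESeq2 (0.57, DESeq2 adjusted p = 0.0312). Without teriflunomide replicate 3, 8 of the 10 genes were called. In that library CDKN1A, GDF15 and SESN1 were at 51.2%, 51.0% and 87.3% of the mean of the other 2 teriflunomide libraries, BTG2 was at 99.6%, and the other 6 genes were at 122% to 143%. Its mitochondrial share differed as given above, and the part of that share in these levels was not tested.

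**Figure D2:**
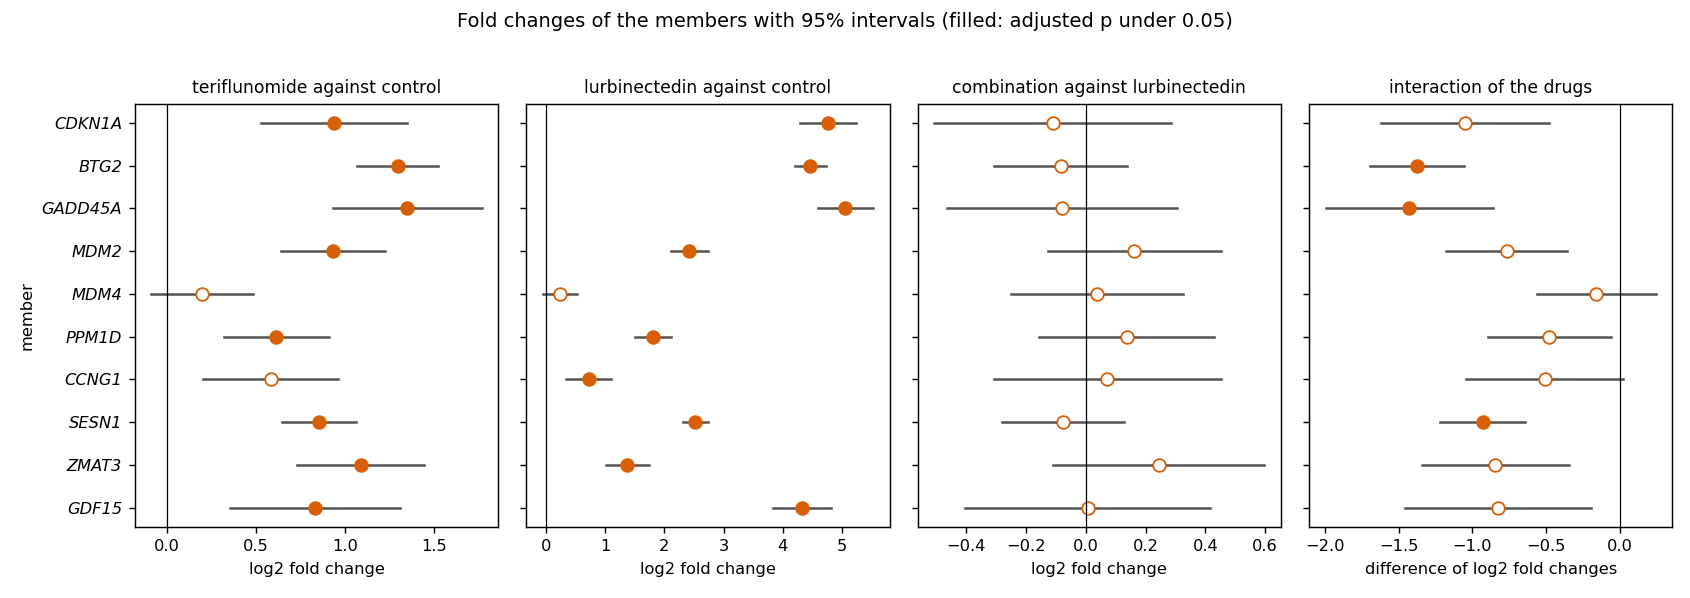
Log2 change of each of the 10 genes in 3 comparisons and the interaction, with 95% intervals; filled points have an edgeR adjusted p under 0.05, and each panel has its own scale. With teriflunomide the points lie between 0.20 and 1.35, with lurbinectedin between 0.23 and 5.06, and for the combination against lurbinectedin every interval spans 0.

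Lurbinectedin raised 9 of the 10 genes, against 36.0% of all genes tested called higher, 35.7% lower and 71.6% either way. Because so many genes moved with lurbinectedin, a call by itself sets these genes apart little, and their sizes are given. The median log2 change of the 10 genes was 2.47, compared with 0.05 over all genes. The lowest lurbinectedin library exceeded the highest control library in all 10 genes and in 42.4% of all genes tested. The arrest genes and GDF15 rose by 20.1-fold to 33.3-fold, the other called genes by 1.65-fold to 5.76-fold, and MDM4 was not called. This comparison shares its control libraries with the one above, so the values of the 2 are set side by side and their likeness is not counted as a result. In RNA from whole spheroids, fewer cells of a type and less RNA per cell cannot be told apart, and CPM are shares of a library, not amounts per cell. The mitochondrial share also moved with lurbinectedin, as given above; leaving the mitochondrial genes out before scaling left 9 of the 10 called.

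GADD45A was at 303, 268 and 270 CPM with lurbinectedin, and its log2 change of 5.06 (SE 0.217; edgeR adjusted p = 2.51e-10) ranked 94 of 16683 genes from the highest. CDKN1A was at 654, 572 and 632 CPM, which is 4.76 above control on the log2 scale (SE 0.217, edgeR adjusted p = 3.96e-10), at rank 134. BTG2 was at 717, 660 and 683 CPM, 4.46 above control (SE 0.12, edgeR adjusted p = 8.384e-12), at rank 164. In each of these arrest genes the 3 lurbinectedin libraries lay close together and far above all 3 control libraries. GDF15 was at 58.8, 62.5 and 66.8 CPM, 4.33 above control (SE 0.229, edgeR adjusted p = 1.32e-09), at rank 187.

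MDM2 stood at 1407, 1459 and 1351 CPM with lurbinectedin, a log2 change of 2.42 (SE 0.142, edgeR adjusted p = 3.63e-09). SESN1 was at 219, 211 and 205 CPM, a log2 change of 2.53 (SE 0.1, edgeR adjusted p = 1.2e-10). PPM1D was at 189, 182 and 179 CPM, with a log2 change of 1.80 (SE 0.141, edgeR adjusted p = 5.78e-08). These 3 genes thus rose by 3.49-fold to 5.76-fold, with tight replicates. ZMAT3 was at 245, 257 and 231 CPM (log2 change 1.38, SE 0.168, edgeR adjusted p = 5.19e-06), close above its teriflunomide level, and its lurbinectedin and teriflunomide groups overlapped (0.29, edgeR adjusted p = 0.128). CCNG1 was at 408, 420 and 361 CPM (0.72, SE 0.177, edgeR adjusted p = 0.00221), against which its teriflunomide level did not differ beyond the spread either (0.14, edgeR adjusted p = 0.477). MDM4 was at 94.4, 105 and 82.5 CPM, and the 95% interval of its log2 change ran from -0.05 to 0.52 (edgeR adjusted p = 0.133). With library size as the only scaling the MDM4 value was -0.0027. With only these 2 groups in the fit MDM4 was called, at 0.21 (edgeR adjusted p = 0.00392).

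Several genes share exon bases with a neighbour, and strand use in counting is not given in the sources used here. The shared part was 4.87% of the exon bases of CDKN1A, 7.09% of those of SESN1 and 14.7% of those of MDM2, and the overlapping genes had at most 199, 26 and 1085 counts in all 12 libraries, against 99472, 41903 and 303919 of CDKN1A, SESN1 and MDM2. No exon of the other 7 genes overlapped another gene in the table.

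With the combination 9 of the 10 genes were higher than in control, against 34.1% of all genes tested, and the median log2 change was 2.52, compared with 0.04 over all genes. MDM4 was not called (0.27, edgeR adjusted p = 0.0867), but was with a filter at 1 CPM (0.32, edgeR adjusted p = 0.0487) and with only these 2 groups fitted (0.28, edgeR adjusted p = 0.0169). Against teriflunomide 8 of 10 were higher (35.2% of all genes), with CCNG1 and MDM4 not called; CCNG1 was called without teriflunomide replicate 3 or combination replicate 3 (edgeR adjusted p = 0.0355 and 0.0249). Lurbinectedin against teriflunomide had 7 of 10 higher (37.2% of all genes), where ZMAT3 was also not called, except without teriflunomide replicate 3 (edgeR adjusted p = 0.00905). All 3 comparisons with lurbinectedin on one side share libraries with the comparisons above. By library, CDKN1A in the combination was at 550, 579 and 592 CPM and BTG2 at 601, 753 and 590 CPM. GADD45A was at 239, 352 and 205 CPM, a wider spread than the 268 to 303 CPM of lurbinectedin alone. MDM2 was at 1713, 1794 and 1213 CPM, with replicate 3 below every lurbinectedin library and the other 2 above them. The same pattern held for PPM1D (207, 236 and 162 CPM), CCNG1 (451, 503 and 297 CPM) and ZMAT3 (326, 329 and 212 CPM). SESN1 was at 202, 216 and 184 CPM, MDM4 at 97.3, 105 and 87.3 CPM, and GDF15 at 61.8, 55.1 and 72.1 CPM.

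Adding teriflunomide to lurbinectedin changed none of the 10 genes detectably. In the combination against lurbinectedin 0 of 10 were called, and 0.00% of the 16683 genes tested; at an unadjusted p under 0.05 the numbers were 0 of 10 and 2599 of 16683, and DESeq2 called 0 of 10 and 584 of all genes. Log2 changes ran from -0.11 for CDKN1A to 0.24 for ZMAT3, the smallest edgeR adjusted p was 0.494, and no gene had groups that did not overlap, compared with 23.7% of all genes. The 95% intervals of the 10 genes lay between -0.51 and 0.60 on the log2 scale. Combination replicate 2 was the highest of its group in 8 of the 10 genes and the lowest in GDF15 (82.3% of the mean of the other 2), with GADD45A at 158%. With this library and teriflunomide replicate 3 both left out of the fit, BTG2 (-0.20, edgeR adjusted p = 0.0424) and GADD45A (-0.33, edgeR adjusted p = 0.0108) were called lower in the combination, and 3640 genes were called among all genes.

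The interaction asks whether the effect of teriflunomide differed with lurbinectedin present. It is the change in the combination against lurbinectedin (median 0.02 over the 10 genes) minus the change with teriflunomide (positive in 10 of 10). The interaction uses the same libraries as these comparisons, so it is no separate evidence of the teriflunomide rise. It was negative in 10 of 10 genes, with a median of -0.83, compared with 0.02 over all genes, and 3 of 10 were called lower, with 0.222% of all genes called lower and 0.258% called in either direction. BTG2 had an interaction of -1.38 (SE 0.148, edgeR adjusted p = 0.00228), GADD45A of -1.43 (SE 0.264, edgeR adjusted p = 0.0444) and SESN1 of -0.93 (SE 0.135, edgeR adjusted p = 0.0139). The other 7 were not called, at -1.05 for CDKN1A, -0.84 for ZMAT3, -0.83 for GDF15, -0.77 for MDM2, -0.51 for CCNG1, -0.48 for PPM1D and -0.16 for MDM4. BTG2 was called in 20 of 20 alternatives, GADD45A in 9 and SESN1 in 12. Leaving out any control or lurbinectedin library, or combination replicate 1, left BTG2 as the 1 gene called; SESN1 was also lost with library size as the only scaling (edgeR adjusted p = 0.239) and GADD45A with a replicate block (0.11). With teriflunomide replicate 3 left out, 6 of the 10 were called lower, CDKN1A, MDM2 and GDF15 being added, and with combination replicate 2 also left out 8 were, among 1839 genes called in all.

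These values are on a log scale, where 0 means that the fold changes of the 2 drugs multiply. On the linear scale, a description without a test, the combination mean was 80.8% to 96.7% of the sum of the control level and the 2 single-drug rises, and 37.1% to 89.6% of the product of their folds. For BTG2 the sum was 732 CPM and the product 1685 CPM, and the libraries of the combination lay between 590 and 753 CPM. For MDM2 the sum was 1643 CPM and the product 2680 CPM, where the libraries lay between 1213 and 1794 CPM. The product was above the highest combination library in all 10 genes. The sum was within the range of the combination libraries in 5 genes (BTG2, GADD45A, MDM2, PPM1D and GDF15) and above it in the other 5.

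The order of the group means was control, teriflunomide, combination, lurbinectedin for CDKN1A, BTG2, GADD45A and SESN1, and control, teriflunomide, lurbinectedin, combination for the other 6. The top 2 places did not differ beyond their spread in any gene. Control and teriflunomide differed in 8 genes, and teriflunomide and the next group in 7, the exceptions there being ZMAT3, CCNG1 and MDM4. MDM4 had no neighbours in the order that differed.

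**Figure D3:**
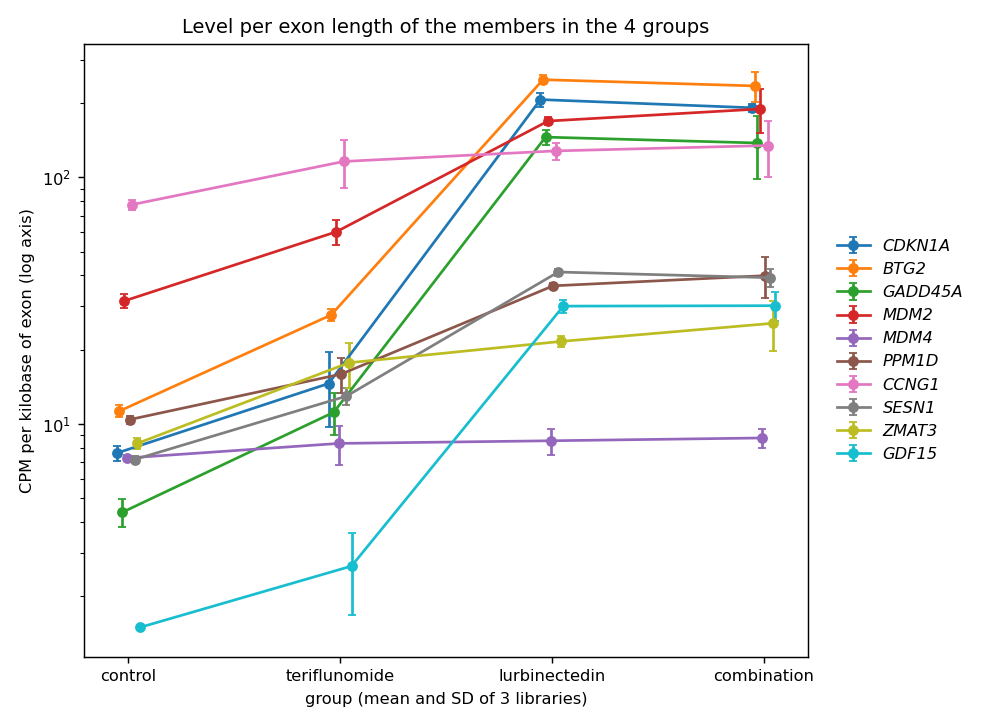
Level per exon length of the 10 genes in the 4 groups, in CPM per kilobase of exon on a log axis, as the mean and SD of 3 libraries. CCNG1 is highest in control, at 77.6, and BTG2 is highest with lurbinectedin, at 249; lines join the groups of 1 gene and show no time course.

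Levels of different genes can be compared only per exon length. In control CCNG1 was the highest, at 77.6 ± 3.70 CPM per kilobase (SD, n = 3), followed by MDM2 at 31.6 ± 2.02. The other 8 genes lay between 1.49 ± 0.0204 for GDF15 and 11.3 ± 0.613 for BTG2. Of the arrest genes, CDKN1A was at 7.62 ± 0.537 and GADD45A at 4.37 ± 0.565 CPM per kilobase in control. With lurbinectedin BTG2 was the highest, at 249 ± 10.4, then CDKN1A at 207 ± 14.1, MDM2 at 169 ± 6.50, GADD45A at 146 ± 10.03 and CCNG1 at 128 ± 10.1 CPM per kilobase. MDM4 passed from the seventh place in control, at 7.28 ± 0.208, to the lowest with lurbinectedin, at 8.55 ± 1.03, its own level having moved less than the levels of the others.

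**Figure D4:**
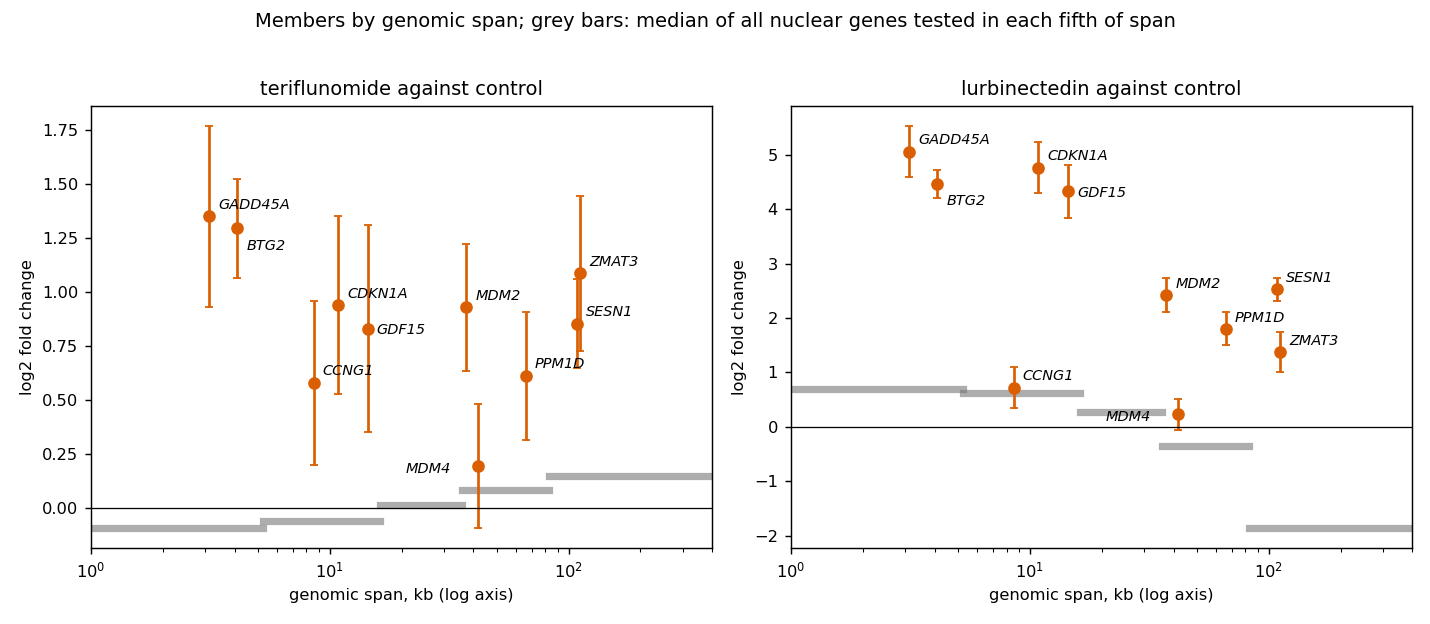
Log2 change of the 10 genes with 95% intervals against genomic span in kilobases (log axis), with teriflunomide on the left and lurbinectedin on the right; grey bars give the median of all nuclear genes tested in each of 5 bins of span and are clipped at the axis limits. In the bin of the longest genes the grey bar with lurbinectedin is at -1.86, and SESN1 and ZMAT3 lie at 2.53 and 1.38.

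Gene length ran along with the response to lurbinectedin across all genes, and the 10 genes are set here against genes of like span. When the nuclear genes tested were cut into 5 bins of 3330 or 3331 genes by genomic span, the median log2 change with lurbinectedin was 0.69 in the bin of the shortest genes and -1.86 in that of the longest, and 50.9% and 5.83% were called higher. GADD45A and BTG2, with spans of 3.13 and 4.11 kb, were in the bin of the shortest genes, and CCNG1 (8.58 kb), CDKN1A (10.9 kb) and GDF15 (14.4 kb) in the next, with a median of 0.62. MDM2 (37.4 kb), MDM4 (41.7 kb) and PPM1D (66.1 kb) were in the fourth bin, where the median was -0.36 and 21.2% of genes were called higher. SESN1 and ZMAT3, at 108 and 112 kb, were in the bin of the longest genes and rose by 2.53 and 1.38 on the log2 scale. CCNG1 (0.72) was near the median of its bin and MDM4 (0.23) was above that of its own. With teriflunomide the bin medians were -0.09, -0.06, 0.01, 0.08 and 0.15, all small beside the changes of the 8 called genes.

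The genes with profiles most like CDKN1A over the 12 libraries were sought among 10439 genes with a mean of at least 5 CPM, by Euclidean distance between log2 profiles set to the control mean. The closest was FDXR (distance 0.617), a mitochondrial reductase gene and known p53 target, followed by PLK3 (1.008), SGK1 (1.08), the listed gene GDF15 (1.12) and L3MBTL2-AS1 (1.22). Against control, in the order teriflunomide, lurbinectedin and combination, FDXR changed by 0.81, 4.65 and 4.40 on the log2 scale, where CDKN1A changed by 0.94, 4.76 and 4.65. The 4 genes closest to MDM2 were DSEL (0.439), EFNB2 (0.566), E2F7 (0.581) and the listed gene SESN1 (0.586). E2F7, a transcriptional repressor of the E2F family, changed by 0.71, 2.40 and 2.47 in the same 3 comparisons. These likenesses describe 12 libraries in 4 groups that share controls, and carry no test.

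**Figure D5:**
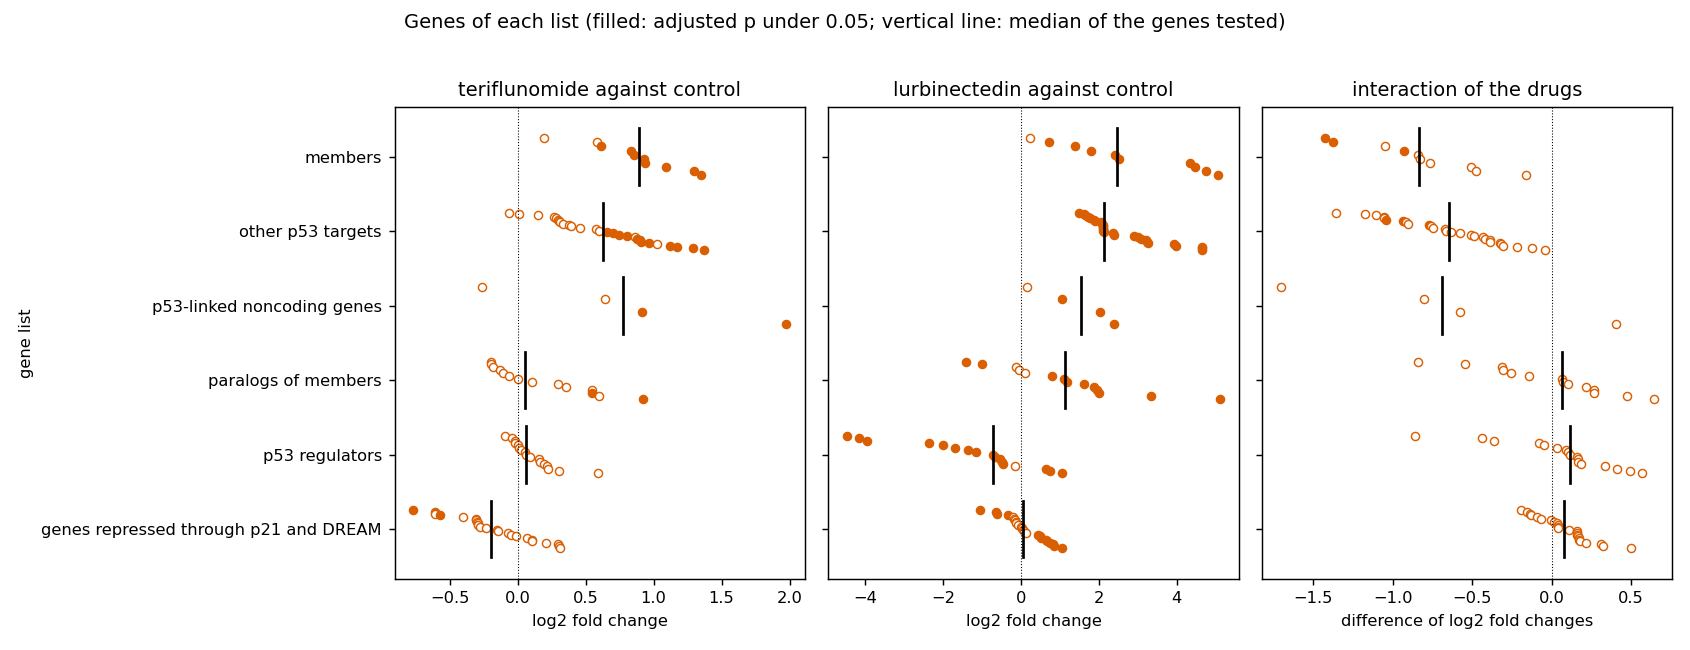
Log2 changes of the genes tested in each list, with teriflunomide, with lurbinectedin, and for the interaction; filled points have an edgeR adjusted p under 0.05 and vertical lines mark list medians. For the 28 other p53 targets the medians are 0.63, 2.12 and -0.65, and for the 17 p53 regulators they are 0.06, -0.73 and 0.11.

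A list of 30 other known p53 targets was read from the same fit; 28 were tested, and SPATA18 and TP53AIP1 did not pass the filter. With teriflunomide 12 of 28 were higher and 0 lower, against 3.88% and 2.13% of all genes tested. The median was 0.63, and without replicate 3 of teriflunomide 21 were higher. The rise was not uniform over libraries. In several of these targets, among them AEN, PIDD1, PHLDA3, BAX, NINJ1 and TRIAP1, the lowest teriflunomide library lay below every control library. That library was at 9.233 CPM for PIDD1 and 44.768 CPM for BAX, where the lowest control libraries were at 17.718 and 58.604 CPM. In others, such as TP53INP1, FAS, RPS27L and RRM2B, every teriflunomide library lay above every control library. The smallest adjusted p were those of TP53INP1 (log2 change 1.29, edgeR adjusted p = 5.545e-05), FAS (1.17, edgeR adjusted p = 0.000358), RPS27L (0.88, edgeR adjusted p = 0.000358) and RRM2B (0.97, edgeR adjusted p = 0.000754). TP53INP1 promotes p53 phosphorylation and autophagy, FAS is a death receptor, RPS27L is a ribosomal protein paralog, and RRM2B is the p53-inducible subunit of ribonucleotide reductase. With lurbinectedin 28 of 28 were higher, against 36.0% of all genes tested, with a median of 2.12. The smallest adjusted p were those of FDXR (4.65), TP53INP1 (3.07), E2F7 (2.40) and FAS (8-fold), though other genes of the list rose by more than the last 3. FAS shares 40.6% of its exon bases with neighbours, among them ACTA2 on the other strand, so its reads are uncertain. In the combination against lurbinectedin 0 of 28 were called, with a median of -0.01. The interaction was negative in 28 of 28 and called lower in 4, against 0.222% of all genes tested. It subtracts the teriflunomide change, which was positive in 27 of 28, so its sign is no separate evidence. The interaction was called lower in 0 with library size as the only scaling, in 1 with a replicate block, in 0 to 1 when a control or lurbinectedin library or combination replicate 1 was left out, and in 19 without teriflunomide replicate 3.

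A list of 17 regulators and relatives of p53 moved otherwise. For these, edgeR called 0 of 17 with teriflunomide, 1 of them having an unadjusted p under 0.05, and 1 was called without teriflunomide replicate 1. With lurbinectedin 3 were higher, against 36.0% of all genes tested. They were RPL5 (0.75) and RPL11 (0.64), ribosomal proteins that bind MDM2 and have pseudogene copies that could share their reads, and CDKN2A (1.04). These 3 were named after their values were seen. The other called genes, 13 in all, were lower, against 35.7% of all genes, and the list median was -0.73. The smallest adjusted p among these belonged to HIPK2 (-4.17), CHEK2 (-2.37), COP1 (-3.96) and TP63 (-4.47). HIPK2 and CHEK2 are kinases that phosphorylate p53, COP1 is a ubiquitin ligase for it, and TP63 is its relative. HIPK2 and CHEK2 fell in the same libraries in which the target genes rose. HIPK2, COP1 and TP63 span 216, 262 and 266 kb, in the bin of the longest genes, whose median with lurbinectedin was -1.86. CHEK2 (54.7 kb) lay in the fourth bin (median -0.36). RPL11 (5.09 kb), RPL5 (9.91 kb) and CDKN2A (27.55 kb) lay in bins of shorter genes, with medians of 0.69, 0.62 and 0.275. The part of gene span in these changes was not tested.

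The 14 paralogs of the listed genes did not all follow them. With teriflunomide 2 were called, both higher, against 3.88% of all genes tested: SESN3 (0.92, edgeR adjusted p = 0.0218) and BTG3 (0.55, edgeR adjusted p = 0.0308). Neither was called when control replicate 1, 2 or 3 was left out (edgeR adjusted p of 0.0877 to 0.0977 for SESN3 and 0.111 to 0.122 for BTG3), nor was BTG3 without teriflunomide replicate 2 (0.0569). Both were also lost with library size as the only scaling, a replicate block or only these 2 groups fitted (edgeR adjusted p of 0.0581 to 0.0954). With lurbinectedin 9 were higher and 2 lower, against 36.0% and 35.7% of all genes tested, with a median of 1.14. GADD45B rose from 3.38 to 3.51 CPM in control to 133.6, 113.5 and 108.7 CPM with lurbinectedin (5.11, edgeR adjusted p = 1.44e-09), a size like that of GADD45A, but was at 3.37, 3.86 and 3.10 CPM with teriflunomide, on both sides of its control range. SESN3 was at 10.1 to 10.5 CPM in control and at 15.5, 17.1 and 26.0 CPM with teriflunomide, but at 4.02, 6.22 and 5.05 CPM with lurbinectedin (-1.01, edgeR adjusted p = 0.000879), so that it fell with lurbinectedin while SESN1 rose with each drug. SESN2 was at 118.8, 115.1 and 51.8 CPM with teriflunomide against 61.1 to 64.0 CPM in control, low in replicate 3 as CDKN1A and GDF15 were, and was not called (0.60, edgeR adjusted p = 0.12) but was called without that library (0.89, edgeR adjusted p = 1.61e-05) and with no expression filter (0.58, edgeR adjusted p = 0.000433); with lurbinectedin it rose by 3.33. CDKN1B, which encodes the p21 relative p27, was not called with teriflunomide and rose by 0.79 with lurbinectedin (edgeR adjusted p = 0.00106). BTG1 (1.99), BTG3 (1.96), TOB1 (1.87), TOB2 (1.63) and CCNG2 (1.09) also rose with lurbinectedin, as did GADD45G (1.18, edgeR adjusted p = 0.0153), whose call was lost without control replicate 2 or 3 or lurbinectedin replicate 1 (0.0567 to 0.0787) and with no expression filter (0.0504). CDKN1C (-0.13), PPM1A (0.11) and PPM1G (-0.06) were not called, though PPM1G was with library size as the only scaling (-0.29, edgeR adjusted p = 0.0151), and PPM1B fell by 1.43 on the log2 scale with lurbinectedin.

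The list of 24 genes that p21 is known to repress through the DREAM complex, which silences cell cycle genes, is given first for teriflunomide. There 3 of 24 were lower and 0 higher, against 2.13% and 3.88% of all genes tested. The median was -0.19, 17 of 24 were negative and 13 had an unadjusted p under 0.05 (4143 of all 16683 genes). Called lower were MCM6 (-0.57, edgeR adjusted p = 0.00353), MCM5 (-0.77, edgeR adjusted p = 0.0234) and MCM2 (-0.61, edgeR adjusted p = 0.0417), subunits of the replicative helicase. Without control replicate 1, 2 or 3 only MCM6 of these 24 genes was called lower, and without teriflunomide replicate 1 or 3 the number was 5; with library size as the only scaling it was 0, and with DESeq2 it was 6. With lurbinectedin, where CDKN1A was highest, 9 of 24 were higher and 4 lower, with a median of 0.04. Of all genes tested 36.0% were called higher, near the 9 of 24, and 35.7% lower. With library size as the only scaling the counts were 5 and 9. BUB1, a spindle checkpoint kinase, fell by 1.06, and CDK1 (0.81), CDC6 (0.67) and CDC25A (0.84), which drive mitosis, replication licensing and S phase entry, rose. Of 5 noncoding genes linked to p53, 4 were tested: with teriflunomide the miR-34a host gene MIR34AHG (0.92, edgeR adjusted p = 0.00456) and PURPL (1.97, edgeR adjusted p = 0.0338) were higher, PURPL not without control replicate 1, 2 or 3 or teriflunomide replicate 3 (edgeR adjusted p of 0.051 to 0.137), and neither with library size only or with only the 2 groups fitted (0.0501 and 0.0544 for MIR34AHG), and with lurbinectedin MIR34AHG (2.38), TP53TG1 (1.05) and PURPL (2.03) were.

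Markers of other cells that a culture could hold were summed beside these results. The sum over 10 genes was 519 to 549 CPM in control, 466 to 485 with teriflunomide, 186 to 220.3 in the lurbinectedin libraries and 199 to 227 in those of the combination. Nearly all of it came from COL1A1 and COL1A2 (93.6 to 272 and 89.9 to 276 CPM over the 12 libraries), while LUM and CD3E had 0 counts and DCN, VWF and PTPRC had 1, 7 and 10 counts in all 12 libraries together. The part of this sum in the results above was not tested.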

How the data were processed

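RNA was purified with a column kit and made into poly(A)-selected libraries, per the labels' protocols. The authors deposited raw read counts per gene, 1 file per library; per the submitters' processing notes, fastp 0.23.2, STAR 2.7.9 and featureCounts of Subread were used with hg38, while annotation release, strand use and multimapping are not given in the sources used here. Of 60649 identifiers, 60507 (99.8%) matched a symbol, and the 37318 whose version is also in GENCODE 29 had identical positions, so coordinates are GRCh38.

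Counts were tested with edgeR 4.0.16 in R 4.3.3: filterByExpr on the 4 groups, TMM, robust quasi-likelihood fit of all 12 libraries with 1 mean per group (biological coefficient of variation 14.5%), and Benjamini-Hochberg adjustment over 16683 genes within each of 7 contrasts. Standard errors came from the F statistic. Scripts were tested on simulated data. Alternatives were other scalings, filters, samples and a replicate block, and DESeq2 1.42.0.

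The genes and lists were chosen with earlier results of these data known. The text names all 10 genes and their paralogs, and from each other list at most 4 genes with the smallest adjusted p per drug. The count of matches to 20 bases and the comparison with sums and products were added after the data had been seen. Some listed genes are not reported here.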

Additional observations from a re-analysis of the deposited data

Results flagged for a closer look

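On the log2 scale, the effect of teriflunomide differed with and without lurbinectedin, by the interaction term of the edgeR fit, for 3 of the 10 genes and for 4 of the 28 other p53 targets. This term subtracts the change with teriflunomide alone, so it is no separate evidence of that change. Of all genes tested 0.258% were called. BTG2 rose by 1.29 with teriflunomide alone and stood at -0.08 for the combination against lurbinectedin, a difference of -1.38 (edgeR adjusted p = 0.00228). For GADD45A the difference was -1.43 (edgeR adjusted p = 0.0444), and for SESN1 it was -0.93 (edgeR adjusted p = 0.0139). Among the other targets it was -1.06 for FAS (edgeR adjusted p = 0.0196), -0.94 for TP53INP1 (edgeR adjusted p = 0.0193), -1.04 for RPS27L (edgeR adjusted p = 0.00996) and -0.77 for DRAM1 (edgeR adjusted p = 0.0444), a lysosomal membrane protein gene that was named after its values were seen. All 7 genes rose with each drug alone. Of the 7, BTG2 was called under each of its 20 alternatives; FAS, TP53INP1, DRAM1, GADD45A and SESN1 were each lost when any control or any lurbinectedin library was left out (edgeR adjusted p of 0.0636 to 0.215). All 5 of these were also lost without combination replicate 1, GADD45A without teriflunomide replicate 2 or combination replicate 3, and DRAM1 without teriflunomide replicate 1 or 2 or any combination library. RPS27L was lost without control replicate 2 or 3 or lurbinectedin replicate 1 or 3 (0.0513 to 0.0711). With library size as the only scaling FAS, TP53INP1, RPS27L, DRAM1 and SESN1 were not called (edgeR adjusted p = 0.157, 0.234, 0.186, 0.436 and 0.239), and with a replicate block GADD45A, FAS, TP53INP1 and DRAM1 were not (0.11, 0.0804, 0.075 and 0.172). On the linear scale the combination mean of BTG2, GADD45A and SESN1 was 88.5%, 90.5% and 83.2% of the sum of the control level and the single-drug rises. That sum was within the range of the combination libraries for BTG2 and GADD45A, and above it for SESN1 (241 CPM, highest library 216 CPM).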

How the results depend on the processing

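The alternatives for the other lists were run after the data had been seen. Of the 10 genes, 8 were called higher with teriflunomide, 9 with DESeq2 or no expression filter, 6 with library size only, 5 with only the groups compared, and 5 to 8 when 1 library was left out. For the interaction 3 were called lower, 6 with no expression filter, 5 with DESeq2, 1 to 6 when 1 library was left out, and 8 without teriflunomide replicate 3 and combination replicate 2. With both out, 2 were lower in the combination against lurbinectedin, where 0 were otherwise. Against control, 9 to 10 of the 10 genes were called with lurbinectedin and with the combination under every alternative run. The count over all genes was 1002 with teriflunomide (216 to 1555 when 1 library was left out, 265 with library size only, 283 with only the groups compared, 1800 with no filter, 1907 with DESeq2, 2757 with both libraries out) and 43 for the interaction (2 to 616, 6 with library size only, 195 with no filter, 258 with DESeq2). For the combination against lurbinectedin it was 0, but 94 with only the groups compared, 259 without combination replicate 2 and 612 with no filter. Library size only put 39.2% of lurbinectedin calls higher, against 50.2%, with a median of -0.18, and moved the interaction's share to 33.3%. Replicate numbers did not pair the libraries (1 of 18 same-number correlations over 0.1, range -0.402 to 0.144); a replicate block gave 6 genes with teriflunomide (415 of all genes) and 2 for the interaction (8 of all genes). Signs turned only in values not called. For MDM4 these were lurbinectedin against control with library size only (-0.0027), the combination against teriflunomide with library size only (-0.0057; -0.052 to 0.21 when 1 library was left out), lurbinectedin against teriflunomide with library size only (-0.10) and no filter (-0.0093; -0.089 to 0.17 when 1 library was left out), and the combination against lurbinectedin with both libraries out (-0.024; -0.046 to 0.135 when 1 library was left out). In that last comparison CCNG1 was at -0.082 with both out and -0.082 to 0.27 when 1 library was left out, GADD45A ran from -0.33 to 0.075 and GDF15 from -0.10 to 0.097. PPM1A with lurbinectedin was at -0.12 with library size only. The cause of these changes was not tested.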
